A study of Mus musculus with 18 samples.

Results

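The BCL2 family and apoptosome genes were followed in RNA-seq of whole mouse embryos at E11.5. They are 10 genes picked by symbol, Bbc3, Pmaip1, Bid, Bcl2l11, Bax, Bak1, Apaf1, Bcl2, Bcl2l1 and Mcl1, of 34244 named genes in the table. All 10 were found and all 10 passed the filter on low values (at least 0.1 FPKM in at least 3 of 9 embryos), which 19397 genes passed. FPKM is a read number scaled to gene length and library size, so levels of different genes can be compared. Total RNA was sequenced from 9 embryos of the FVB strain, 3 independent embryos per genotype, as 1 library per embryo. Dnmt3b+/+ embryos carried the wild-type gene of the de novo DNA methyltransferase Dnmt3b. By their label, Dnmt3b-/- embryos carried a conventional knockout allele, in every cell rather than in 1 tissue. It was made by way of mice with a floxed Dnmt3b gene. Dnmt3bCI/CI embryos carried a knock-in at the endogenous gene, made with CRISPR/Cas9 in FVB zygotes, that replaces neighbouring residues of the catalytic site so that the protein is made but is catalytically inactive. No treatment was given and no other allele is named in the labels. The comparisons ask how the cell death machinery differs where Dnmt3b is knocked out by label and where only its activity is missing.

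The BCL2 family sets whether the outer mitochondrial membrane stays intact. BH3-only proteins sense damage or stress and bind survival proteins or activate the effectors Bax and Bak1, which open pores in that membrane. Cytochrome c then leaves the mitochondria and assembles with Apaf1 into the apoptosome, the platform that activates caspase-9, while Bcl2, Bcl2l1 and Mcl1 hold the effectors and BH3-only proteins in check.

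The targeted gene did not follow the knockout label. Dnmt3b was at 2.25, 1.62 and 2.04 FPKM in Dnmt3b+/+ embryos, at 2.45, 3.12 and 3.33 FPKM in those labelled Dnmt3b-/-, and at 2.06, 1.98 and 2.32 FPKM in Dnmt3bCI/CI. The knockout label thus went with a higher value (log2 fold change 0.57 ± 0.15 (SE), adjusted p = 0.0248, limma), and a value summed over the gene cannot show the loss of some exons. For this reason the embryos are called by their label here. The paper reports PCR genotyping, a Dnmt3b immunoblot at E11.5 and widespread hypomethylation for embryos of this genotype. None of these was examined here. The totals implied by the FPKM values ranged from 38451729 to 49808777 reads per library. Xist was above 1 FPKM in 1 of 3 Dnmt3b+/+, 0 of 3 labelled Dnmt3b-/- and 1 of 3 Dnmt3bCI/CI embryos, so the genotypes were not matched for sex. In the embryos labelled Dnmt3b-/- all 6 of 6 cartilage markers and 4 of 5 skeletal muscle markers fell. Their summed levels ranged over 140 to 210 FPKM (cartilage) and 106 to 205 FPKM (muscle) in Dnmt3b+/+ and over 79.5 to 126 and 78.1 to 100.1 FPKM under the knockout label. In Dnmt3bCI/CI they ranged over 201 to 213 and 183 to 229 FPKM. Of the cartilage markers 2 were under 0.1 FPKM in at least 1 embryo labelled Dnmt3b-/-. Some libraries stood apart in marker genes of single organs. In Dnmt3b+/+ embryo 2, 5 of 6 hepatocyte markers were at 0.119 FPKM or less, among them Alb (albumin, against 85.7 and 43.7 FPKM in the other wild types), while Ttr was higher there than in both (35.5 against 22.5 and 14.7 FPKM). The erythroid factors Klf1 and Gata1 were under 0.5 FPKM in it, while its summed erythroid level was the median of the wild types (2788 FPKM, mostly of globins). Nppa, a cardiac marker, was at 0.104 FPKM in Dnmt3b+/+ embryo 1 and 0.210 FPKM in Dnmt3bCI/CI embryo 3, against 3.74 to 38.7 FPKM in the other 7. Without Dnmt3b+/+ embryo 2, 4 of the members were called in the embryos labelled Dnmt3b-/- against Dnmt3b+/+ (Bbc3, Pmaip1, Bax and Mcl1), where 6 were with it. Of 19397 genes, 1160 rose without this embryo and 1826 with it. The log2 fold change of Apaf1, no longer called, was 0.21 without it and 0.24 with it. That of Bak1, also lost, was no lower than 0.255 in any fit leaving out 1 embryo, against 0.30 with all. In the embryos labelled Dnmt3b-/- against Dnmt3b+/+, 0 of 6 endothelial and 0 of 5 cardiac markers passed the test. Of the other marker lists, 2 of 8 erythroid, 1 of 8 neural and 1 of 6 macrophage markers rose, and 1 of 6 hepatocyte and 1 of 6 macrophage markers fell. Over all tested genes 9.41% rose and 16.4% fell, so 1 called marker of 6 or 8 is not read as a change of a cell type. The part of these markers in the results below was not tested. In whole embryos, fewer cells of a type and less RNA per cell cannot be told apart.

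The windows around the start sites of 9 members, all but Pmaip1, which was not searched, were read from RefSeq on GRCm38.p6, from 250 bases before to 50 bases after each start, 14 windows in all. They were searched for the p53 response element, a pair of 10-base half-sites separated by 0 to 13 bases. Each half-site was allowed at most 2 mismatches and the pair at most 3, with the 4 central letters (C, A or T, A or T, G) kept. The motif reads the same on both strands, so 1 pass covers both. An element by these letters was found in 2 of the 14 windows, 1 of the 3 windows of Bbc3 and that of Bax, and in 5.75% of 32851 windows of the same length over all genes. The windows shown are these 2, where capitals mark half-sites of the elements found, and of Apaf1, Mcl1 and Bcl2 for comparison, where none was found.
Bbc3, chr7:16309333-16309632, plus strand: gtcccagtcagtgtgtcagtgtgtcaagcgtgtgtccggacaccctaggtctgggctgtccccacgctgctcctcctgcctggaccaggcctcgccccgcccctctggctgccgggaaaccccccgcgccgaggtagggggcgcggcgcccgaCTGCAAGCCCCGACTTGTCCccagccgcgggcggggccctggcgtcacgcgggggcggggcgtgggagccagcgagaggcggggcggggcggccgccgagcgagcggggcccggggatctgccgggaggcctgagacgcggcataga
Bax, chr7:45466849-45467148, minus strand: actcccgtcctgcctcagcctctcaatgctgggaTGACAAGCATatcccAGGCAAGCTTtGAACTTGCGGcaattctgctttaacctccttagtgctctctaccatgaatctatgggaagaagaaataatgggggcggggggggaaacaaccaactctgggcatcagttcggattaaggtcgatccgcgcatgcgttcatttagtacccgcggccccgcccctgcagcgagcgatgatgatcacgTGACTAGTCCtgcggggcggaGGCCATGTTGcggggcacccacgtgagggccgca
Apaf1, chr10:91082694-91082993, minus strand: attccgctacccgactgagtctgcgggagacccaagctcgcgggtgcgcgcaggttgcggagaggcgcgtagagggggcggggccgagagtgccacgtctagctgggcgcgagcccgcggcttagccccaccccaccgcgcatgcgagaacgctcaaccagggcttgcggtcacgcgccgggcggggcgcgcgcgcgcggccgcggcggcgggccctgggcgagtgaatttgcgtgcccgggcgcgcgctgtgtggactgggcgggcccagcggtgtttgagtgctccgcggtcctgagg
Mcl1, chr3:95658471-95658770, plus strand: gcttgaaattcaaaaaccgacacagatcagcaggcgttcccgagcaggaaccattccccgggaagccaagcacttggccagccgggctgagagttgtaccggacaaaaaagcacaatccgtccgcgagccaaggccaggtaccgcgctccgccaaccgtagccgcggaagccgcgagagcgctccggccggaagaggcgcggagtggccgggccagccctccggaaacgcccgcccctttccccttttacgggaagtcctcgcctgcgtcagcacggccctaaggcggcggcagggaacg
Bcl2, chr1:106714241-106714540, minus strand: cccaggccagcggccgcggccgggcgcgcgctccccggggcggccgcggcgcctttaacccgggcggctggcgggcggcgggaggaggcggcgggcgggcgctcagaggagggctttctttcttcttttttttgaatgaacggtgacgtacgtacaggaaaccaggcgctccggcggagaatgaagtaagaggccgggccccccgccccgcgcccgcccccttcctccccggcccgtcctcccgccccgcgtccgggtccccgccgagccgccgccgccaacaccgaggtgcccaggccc
In this Bbc3 window the half-sites CTGCAAGCCC and CGACTTGTCC adjoin with a spacing of 0, hold 3 mismatches together, and begin 97 bases before the start site. In the Bax window, of 3 elements, the one with the shortest spacing pairs AGGCAAGCTT with GAACTTGCGG, 1 base apart and with 2 mismatches, beginning 201 bases before the start site. The window of Bax also held 1 exact half-site, as did 8.36% of all windows. The windows differed in CpG content, with 46 CpG in that of Apaf1, 44 in Bcl2, 34 in the Bbc3 window shown (30 and 39 in its others), 33 in Mcl1 and 19 in Bax, against a median of 7 over all windows. A match of letters is a description of the sequence, and no DNA methylation was analysed here.

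In Dnmt3b+/+ embryos both effectors, Bax and Bak1, and the survival genes Mcl1 and Bcl2l1 were the most abundant members. Bax (31.6 ± 1.59 FPKM, SD, n = 3) and Mcl1 (31.1 ± 1.03 FPKM) led and did not differ beyond their spread. Bcl2l1 followed at 11.0 ± 0.379 FPKM and Bak1 at 7.65 ± 0.588 FPKM, each apart from its neighbours. Below them, Bbc3 (4.61 ± 0.782 FPKM) overlapped with Apaf1 (3.61 ± 0.230 FPKM). The next group, Bcl2l11 (2.48 ± 0.247 FPKM), Bcl2 (2.19 ± 0.107 FPKM) and Bid (2.10 ± 0.181 FPKM), overlapped between neighbours. Pmaip1 was lowest at 0.682 ± 0.180 FPKM. Over all 9 libraries, of every genotype, the FPKM values of 9 members stand for between 299 reads (Bid) and 5364 reads (Mcl1) per library. For Pmaip1 the reads are approximate, since its annotated exon length gave no whole read numbers, and ranged from about 60 to about 713 over all 9 libraries. The exact Poisson 95% interval around 60 reads is 45.8 to 77.2, which covers counting error only.

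**Figure D1:**
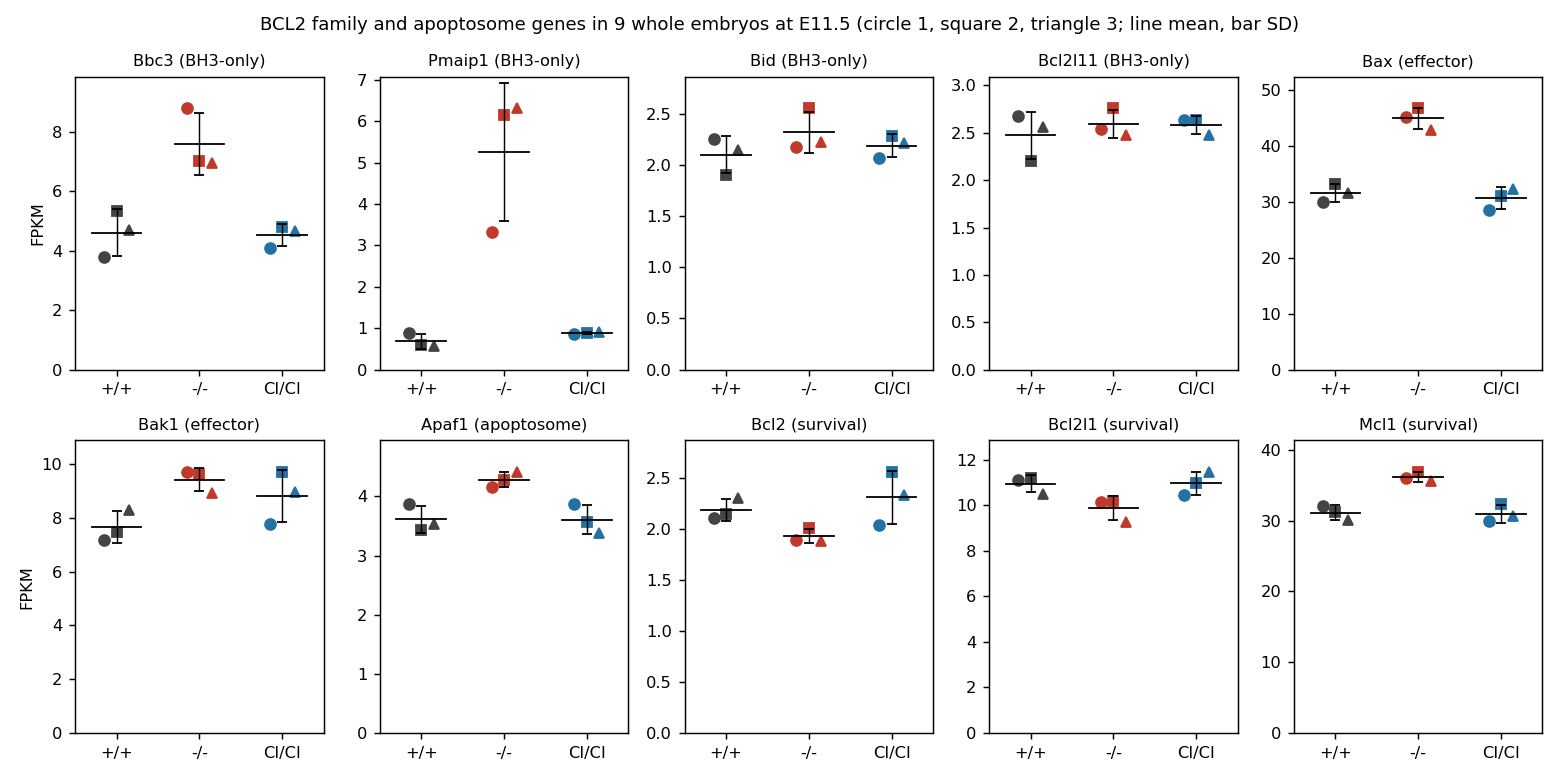
FPKM of each of the 10 members in each embryo (circle 1, square 2, triangle 3), by genotype; lines are means and bars SD of 3 embryos, and each vertical axis starts at 0. The 3 embryos labelled -/- lie above all 3 +/+ embryos for Bbc3, Pmaip1, Bax, Bak1, Apaf1 and Mcl1, and below them for Bcl2 and Bcl2l1.

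Against Dnmt3b+/+, 5 of 7 pro-apoptotic members (Bbc3, Pmaip1, Bax, Bak1 and Apaf1) and 1 of 3 survival members (Mcl1) rose in the embryos labelled Dnmt3b-/-. No member fell. Over all tested genes 9.41% rose and 16.4% fell at an adjusted p under 0.05. The members were chosen with earlier results of these data known, so the difference from these shares is descriptive. The median log2 fold change was 0.30 over the 7 pro-apoptotic members and -0.15 over the 3 survival members, against -0.07 over all tested genes. With a change of at least 2-fold as well, 1 member rose, Pmaip1, against 1.07% of genes. Folds are on the log2(FPKM + 0.1) scale, and p-values are from limma with Benjamini-Hochberg adjustment over all 19397 genes. An exact permutation test of 3 against 3 embryos cannot go below p = 0.1. Of calls over all genes 36.5% were rises, and 51.8% were under quantile normalization. In the embryos with low Xist only, 3 members (Pmaip1, Bbc3 and Bax) were called, while 1135 of 19397 genes rose and 1962 fell.

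Pmaip1, which encodes the BH3-only protein Noxa that binds Mcl1, showed the widest difference of the members. It was at 0.889, 0.599 and 0.559 FPKM in Dnmt3b+/+ embryos and at 3.34, 6.14 and 6.31 FPKM in the embryos labelled Dnmt3b-/-. All 3 labelled Dnmt3b-/- were above all 3 wild types, and the first of them was lower than the other two. The ratio of the means was 7.71, and the log2 fold change was 2.75 ± 0.25 (SE, adjusted p = 3.9e-04, 95% interval 2.18 to 3.31). Because Pmaip1 was low in Dnmt3b+/+, its fold depends on the pseudocount, and over the alternatives it ranged from 1.86 to 3.04 and remained called in each of 18. The tested genes whose scaled profile over the 9 embryos was nearest to that of Pmaip1 were Cct7 (Euclidean distance 0.280), Fam162a (0.320) and Ddx19a (0.323). Their own log2 fold changes were smaller, at 0.36, 0.82 and 0.37.

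Bbc3 encodes Puma, a BH3-only protein that binds every survival member of the family. Its gene lies at chr7:16308393-16318205 on the plus strand (GRCm38, GENCODE M21), and the Bbc3 sequence shown is from within this locus. It was at 3.79, 5.34 and 4.71 FPKM in Dnmt3b+/+ and at 8.79, 7.03 and 6.95 FPKM in the embryos labelled Dnmt3b-/-. The groups did not overlap, and the first embryo labelled Dnmt3b-/- was the highest. The log2 fold change was 0.71 ± 0.14 (SE, adjusted p = 0.00890), a ratio of means of 1.65. It was called in each of 18 alternatives.

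Bid and Bcl2l11 did not pass the test. Bid, which is cut by caspase-8 and links death receptors to mitochondria, was at 2.25, 1.90 and 2.15 FPKM in Dnmt3b+/+ and at 2.18, 2.55 and 2.22 FPKM in the embryos labelled Dnmt3b-/-. Bcl2l11, the gene of Bim (chr2:128126038-128162547, plus strand), was at 2.67, 2.20 and 2.56 FPKM against 2.54, 2.76 and 2.48 FPKM. For both genes the groups overlapped. The log2 fold changes were 0.14 (95% interval -0.08 to 0.35) and 0.07 (-0.14 to 0.27). The exons of Bid (chr6:120891930-120916853, minus strand) overlap those of Bcl2l13 on the other strand by 628 bases, and the strand setting of the counting is not stated. The log2 fold change of Bcl2l11 turned to -0.014 without Dnmt3b+/+ embryo 2.

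Both effectors rose. Bax, the pore-forming protein that moves from the cytosol to mitochondria, was at 30.0, 33.1 and 31.6 FPKM in Dnmt3b+/+ and at 45.2, 46.7 and 42.9 FPKM in the embryos labelled Dnmt3b-/-. The lowest labelled Dnmt3b-/- embryo was above the highest wild type. The log2 fold change was 0.51 ± 0.07 (SE, adjusted p = 0.00200), a ratio of means of 1.42, and it was called in each of 18 alternatives. The gene lies at chr7:45461697-45466898 on the minus strand, and 192 bases of its exons are shared with the gene model Gm45808 on the same strand. Bak1, the effector that already sits in the outer membrane, was at 7.17, 7.46 and 8.30 FPKM against 9.71, 9.64 and 8.91 FPKM. Its groups did not overlap either, though the gap from 8.30 to 8.91 FPKM was narrow. The log2 fold change of Bak1 was 0.30 ± 0.09 (SE, adjusted p = 0.0426). This call was lost without Dnmt3b+/+ embryo 1 or 2 (adjusted p = 0.108 and 0.101), embryo 1, 2 or 3 labelled Dnmt3b-/- (0.0714, 0.122 and 0.0663) or Dnmt3bCI/CI embryo 3 (0.0656). The exons of Bak1 (chr17:27019810-27029009, minus strand) overlap those of Ggnbp1 on the other strand by 614 bases.

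Apaf1, the scaffold of the apoptosome, also rose, by a small amount. It was at 3.87, 3.44 and 3.53 FPKM in Dnmt3b+/+ and at 4.16, 4.27 and 4.42 FPKM in the embryos labelled Dnmt3b-/-. The groups did not overlap. The log2 fold change was 0.24 ± 0.07 (SE, adjusted p = 0.0441). The call was lost without Dnmt3b+/+ embryo 2 or 3 (adjusted p = 0.116 and 0.119), embryo 2 or 3 labelled Dnmt3b-/- (0.110 and 0.126) or Dnmt3bCI/CI embryo 2 or 3 (0.0683 and 0.0555). Apaf1 spans chr10:90989311-91082770 on the minus strand.

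Of the survival genes, Mcl1 passed the test and Bcl2 and Bcl2l1 did not. Mcl1, a short-lived survival protein, was at 32.1, 31.3 and 30.1 FPKM in Dnmt3b+/+ and at 36.1, 36.9 and 35.5 FPKM in the embryos labelled Dnmt3b-/-. The groups did not overlap, and the log2 fold change was 0.22 ± 0.05 (SE, adjusted p = 0.0173). It was lost without Dnmt3b+/+ embryo 3 (adjusted p = 0.0633) or embryo 2 labelled Dnmt3b-/- (0.0623), and under quantile normalization (log2 fold change 0.14, adjusted p = 0.0985). Bcl2, the founding survival protein, was at 2.11, 2.15 and 2.31 FPKM against 1.90, 2.01 and 1.89 FPKM. Bcl2l1, the gene of Bcl-xL, was at 11.1, 11.2 and 10.5 FPKM against 10.2, 10.2 and 9.26 FPKM. For both, all 3 labelled Dnmt3b-/- embryos were below all 3 wild types, a pattern shown by 23.8% of tested genes, while the 6 members with all 3 above compare with 15.1%. Neither passed the test, with log2 fold changes of -0.17 (95% interval -0.38 to 0.04, adjusted p = 0.203) for Bcl2 and -0.15 (-0.29 to -0.01, adjusted p = 0.103) for Bcl2l1. Bcl2l1 lies at chr2:152780668-152831728 on the minus strand and Mcl1 at chr3:95658788-95663176 on the plus strand. The exons of Bcl2 (chr1:106538178-106714274, minus strand) overlap D630008O14Rik on the other strand by 558 bases.

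**Figure D2:**
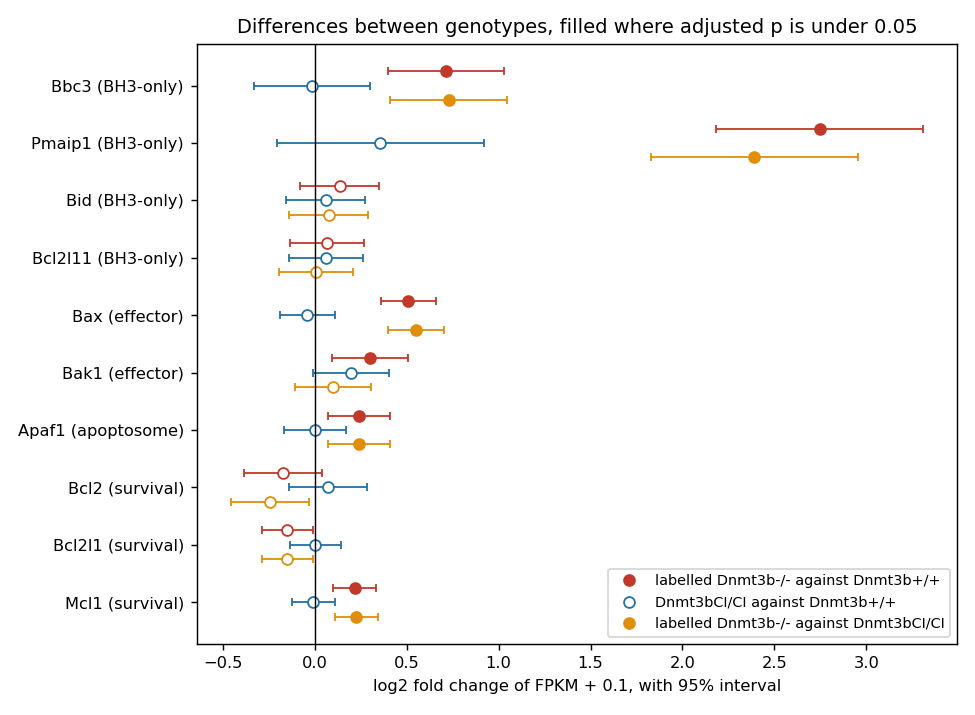
Log2 fold change of FPKM + 0.1 for each member in the 3 comparisons, with 95% intervals from limma; filled points have an adjusted p under 0.05. Pmaip1 stands at 2.75 against Dnmt3b+/+ in the embryos labelled Dnmt3b-/-, and every Dnmt3bCI/CI point is open and lies between -0.04 and 0.36.

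Set against each other, pro-apoptotic members were higher relative to survival members in the embryos labelled Dnmt3b-/-, by mean log2 level and by summed FPKM. The mean log2(FPKM + 0.1) of the 7 pro-apoptotic members minus that of the 3 survival members was -1.15, -1.22 and -1.18 in Dnmt3b+/+, -0.55, -0.45 and -0.43 in the embryos labelled Dnmt3b-/-, and -1.08, -1.14 and -1.13 in Dnmt3bCI/CI. The 3 labelled Dnmt3b-/- embryos were apart from the other 6, with a shift of 0.71 in the mean against Dnmt3b+/+. Without Pmaip1 the shift was 0.36. The mean of the survival members was 3.21, 3.17 and 3.23 (log2) in the 3 genotypes, against 2.02, 2.70 and 2.11 for the pro-apoptotic members. These scores were built from chosen genes and were not tested.

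**Figure D3:**
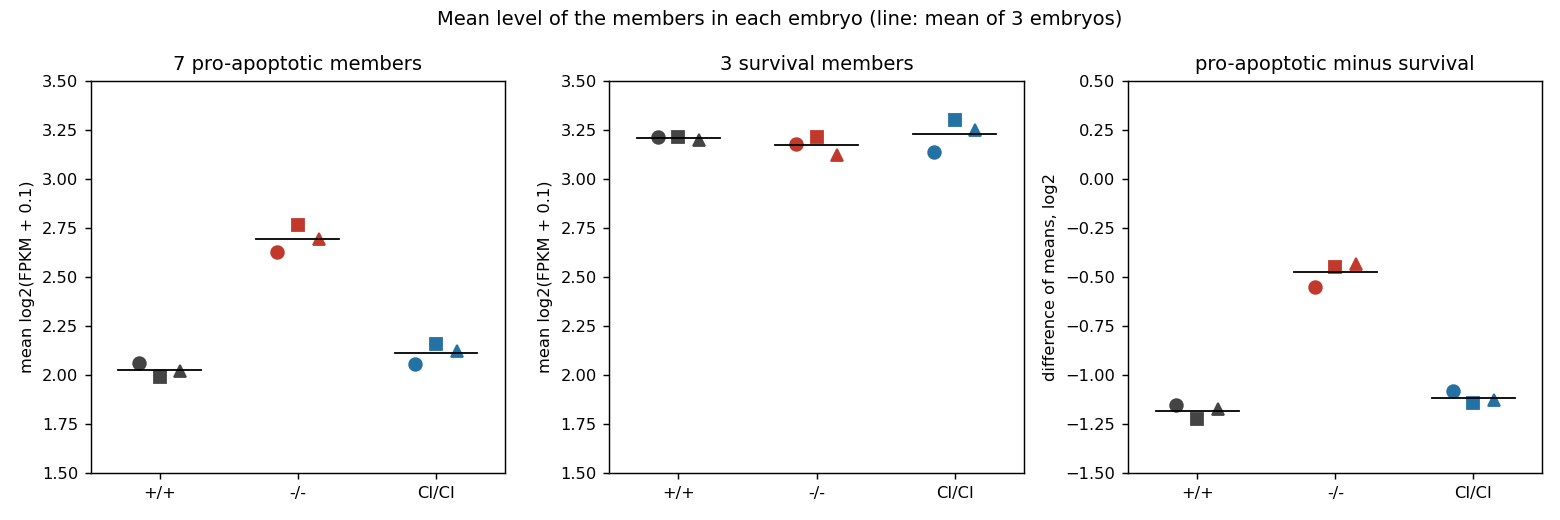
Mean log2(FPKM + 0.1) of the 7 pro-apoptotic members, of the 3 survival members, and the difference of these means in each embryo (circle 1, square 2, triangle 3; lines are means of 3 embryos). The embryos labelled -/- lie above the others in the left panel and in the right panel, at -0.55 to -0.43 in the latter, and overlap with +/+ in the middle panel.

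In summed FPKM, the pro-apoptotic members came to 52.7 ± 1.82 in Dnmt3b+/+, 76.4 ± 2.51 in the embryos labelled Dnmt3b-/- and 53.3 ± 2.97 in Dnmt3bCI/CI (SD, n = 3). The survival members came to 44.3 ± 1.26, 48.0 ± 1.22 and 44.2 ± 1.73 FPKM. Each sum was mostly of 1 gene. Bax had means of 31.6, 44.9 and 30.7 FPKM in the 3 genotypes, and Mcl1 of 31.1, 36.2 and 31.0 FPKM. By these sums the pro-apoptotic members were above the survival members in all 3 genotypes, at a ratio of 1.19 ± 0.0664, 1.59 ± 0.0172 and 1.20 ± 0.0321, whereas by mean log2 level they were below them. Ratios between partners were taken in each embryo. The ratio of Bax to Bcl2 was 14.4 ± 0.904 in Dnmt3b+/+, 23.3 ± 0.567 under the knockout label and 13.3 ± 1.03 in Dnmt3bCI/CI. The ratio of Bax to Bcl2l1 was 2.88 ± 0.164, 4.55 ± 0.0928 and 2.79 ± 0.0541. The ratio of Bax to Mcl1 was 1.01 ± 0.0706, 1.24 ± 0.0316 and 0.991 ± 0.0577. Mcl1 stood at 36.1 to 53.8 times the level of its partner Pmaip1 in Dnmt3b+/+ and at 5.63 to 10.8 times in the embryos labelled Dnmt3b-/-. In Dnmt3bCI/CI it stood at 33.5 to 36.7 times. The exon length of Pmaip1 gave no whole read numbers, so the size of these multiples of Mcl1 over Pmaip1 is uncertain. All these ratios are of RNA, and protein was not measured.

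In Dnmt3bCI/CI against Dnmt3b+/+, 0 of 10 members passed the test in limma, and 0 did at an unadjusted p under 0.05, against 0.144% and 5.25% of tested genes. For every member the groups overlapped, while over all genes all 3 embryos were above in 7.53% and below in 5.65%. Bbc3 was at 4.10, 4.82 and 4.68 FPKM and Bax at 28.5, 31.1 and 32.4 FPKM, the former inside the wild-type range and the latter reaching just below it. Their 95% intervals, -0.33 to 0.30 and -0.19 to 0.11, do not reach the changes seen under the knockout label. Pmaip1 was at 0.859, 0.882 and 0.914 FPKM, 1 of 3 above the highest wild type, with a log2 fold change of 0.36 (95% interval -0.21 to 0.92). Bak1 was at 7.76, 9.69 and 8.97 FPKM, and its interval, -0.01 to 0.41, holds the change of 0.30 found under the knockout label. For the other members the log2 fold changes lay between -0.01 and 0.07. Bid was at 2.07, 2.28 and 2.21 FPKM in Dnmt3bCI/CI, with a 95% interval of -0.16 to 0.27 for its log2 fold change. Bcl2l11 was at 2.63, 2.64 and 2.47 FPKM (-0.14 to 0.26), and Apaf1 at 3.88, 3.56 and 3.39 FPKM (-0.17 to 0.17). Bid, Bcl2l11 and Apaf1 thus lay in or close to the wild-type range in every Dnmt3bCI/CI embryo, while 2 of 3 were above the highest wild type for Bak1 (8.30 FPKM).

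The survival genes of Dnmt3bCI/CI embryos were likewise mixed with those of Dnmt3b+/+. Bcl2 was at 2.04, 2.56 and 2.33 FPKM, with values on both sides of the wild-type range and a 95% interval of -0.14 to 0.28. Bcl2l1 was at 10.45, 10.99 and 11.48 FPKM, also on both sides of it, with an interval of -0.14 to 0.14. Mcl1 was at 29.9, 32.3 and 30.6 FPKM, with an interval of -0.12 to 0.11 that ends below the change of 0.22 seen under the knockout label.

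In the embryos labelled Dnmt3b-/- against Dnmt3bCI/CI, 5 of 10 members rose (Pmaip1, Bbc3, Bax, Mcl1 and Apaf1), against 9.7% of genes, and no member fell, against 18.2%. The embryos labelled Dnmt3b-/- are the same as in the comparison with Dnmt3b+/+. The log2 fold changes were 2.39 for Pmaip1 (adjusted p = 6.5e-04), 0.73 for Bbc3 (0.00712), 0.55 for Bax (0.00123), 0.23 for Mcl1 (0.0135) and 0.24 for Apaf1 (0.0412). All 5 had every labelled Dnmt3b-/- embryo above every Dnmt3bCI/CI embryo, as did 16.7% of genes. Bak1 did not pass (0.10, 95% interval -0.11 to 0.31). Bcl2 (-0.24, adjusted p = 0.0826) and Bcl2l1 (-0.15, adjusted p = 0.0940) were lower in all 3 embryos without passing, a pattern shown by 29.5% of genes. Without Dnmt3bCI/CI embryo 1 Bcl2 was called (-0.33, adjusted p = 0.0489) and Mcl1 was lost (adjusted p = 0.0554). Mcl1 was also lost without Dnmt3bCI/CI embryo 3 (0.0520), under quantile normalization (0.17, adjusted p = 0.05003) and in embryos with low Xist only (0.0714), and was called in 14 of 18 alternatives. Apaf1 was lost without Dnmt3b+/+ embryo 3 (0.0622), embryo 2 or 3 labelled Dnmt3b-/- (0.0986 and 0.121) or Dnmt3bCI/CI embryo 2 or 3 (0.109 and 0.134). Of the marker lists, 3 of 8 neural markers (Sox2, Sox1 and Nes) and 2 of 8 erythroid markers were higher in this comparison. Lower were 5 of 6 cartilage, 4 of 5 skeletal muscle, 3 of 6 macrophage (C1qa, Csf1r and Mrc1), 2 of 6 endothelial (Pecam1 and Cdh5) and 1 of 6 hepatocyte markers, and their part in the result was not tested.

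Beyond the members, the other genes of the cell death pathway were taken from 5 lists and the p53 axis. All were chosen with earlier results of these data known, so their counts are descriptive. Of 37 tested genes in the 5 lists without that axis, 6 rose in the embryos labelled Dnmt3b-/- against Dnmt3b+/+ (16.2%, against 9.41% of all genes) and 1 fell (against 16.4% of all genes), with a median log2 fold change of 0.03. Bmf, a BH3-only protein tied to the cytoskeleton, fell from 5.54 ± 0.225 to 3.62 ± 0.321 FPKM (log2 fold change -0.60, adjusted p = 0.0016). Bnip3, a mitochondrial BH3-like protein of mitophagy, rose by 0.78 (log2, adjusted p = 0.0205) with a wide spread of 8.79 ± 3.03 FPKM under the knockout label, where the embryos were at 7.03, 7.06 and 12.3 FPKM. Without the last of these its log2 fold change was 0.51 (adjusted p = 0.00784), and the call was lost without Dnmt3b+/+ embryo 2 (0.73, adjusted p = 0.0578). Of 9 other pro-apoptotic family genes tested these were the 2 that passed.

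The survival relative Bcl2l12 rose by 0.30 (log2, adjusted p = 0.0115), 1 of 2 other survival family genes that could be tested. The rest of that list, Bcl2l10 and 3 Bcl2a1 genes, were too low to test. Of 10 caspases and apoptosome partners 1 rose, the flavoprotein Aifm1 (log2 fold change 0.30, adjusted p = 0.0164). Casp9, the caspase recruited by Apaf1, was at 3.24 ± 0.0604 against 2.93 ± 0.168 FPKM and Cycs at 10.7 ± 0.420 against 12.3 ± 1.21 FPKM, and neither passed. Both were named after their values were seen. Of 7 inhibitors of apoptosis and their antagonists 1 rose, Birc5 (survivin, also a mitotic protein; 0.53, adjusted p = 0.0321). Of 9 mitochondrial regulators 2 rose, the ubiquitin ligase March5 (0.36, adjusted p = 0.0113) and the channel Vdac2 (0.23, adjusted p = 0.0357), the latter named after its value was seen.

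Leaving out each embryo in turn kept Bmf, Bcl2l12 and March5 called in 9 of 9 fits. Vdac2 was called in 1 of these 9, Birc5 in 3, Aifm1 in 6 and Bnip3 in 8. In the p53 axis 9 of 12 tested genes rose, against 9.41% of all genes, with a median log2 fold change of 0.92. The list was chosen with earlier results of these data known, so this share describes it and does not test an enrichment. The log2 fold changes were 1.46 for the stress gene Sesn2 (adjusted p = 1.3e-05), 2.76 for the receptor Eda2r (4.4e-05) and 1.66 for the cyclin Ccng1 (8.7e-05). They were 0.91 for the RNA-binding Zmat3, 0.92 for the nuclease Aen, 1.27 for Phlda3, 0.77 for Trp53inp1, 1.04 for the cell cycle inhibitor Cdkn1a (adjusted p = 0.00117) and 0.21 for Mdm2, the ubiquitin ligase of p53 (adjusted p = 0.0216). All but Mdm2 remained called in each of 18 alternatives. Mdm2 did so in 12, and was lost without Dnmt3b+/+ embryo 1 (0.0578) or embryo 2 or 3 labelled Dnmt3b-/- (0.0638 and 0.0731). With a pseudocount of 1 FPKM Eda2r, a low gene, was at 1.17. In Dnmt3bCI/CI 0 genes of these lists passed against Dnmt3b+/+ in limma, with 2 of the 37 and 2 of the 12 at an unadjusted p under 0.05, against 5.25% of all genes.

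**Figure D4:**
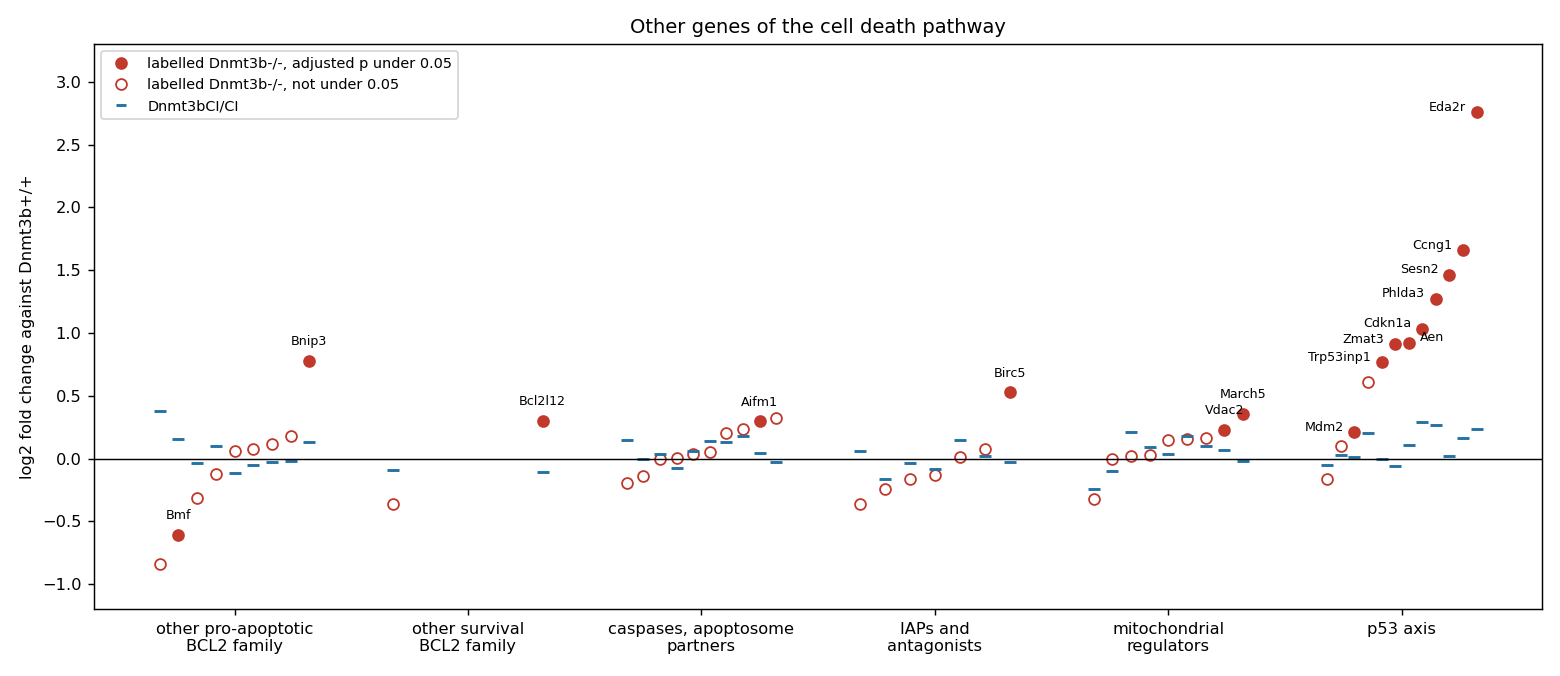
Log2 fold change against Dnmt3b+/+ of every tested gene of 6 lists of the cell death pathway, with each gene at 1 horizontal place; circles are the embryos labelled Dnmt3b-/- (filled and named at an adjusted p under 0.05) and bars Dnmt3bCI/CI. In the 5 lists on the left 6 of 37 genes rose and 1 fell, and in the p53 axis 9 of 12 rose. The lists were chosen with earlier results of these data known.

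In the embryos labelled Dnmt3b-/- against Dnmt3bCI/CI, 5 of the 37 genes rose and 3 fell, against 9.7% and 18.2% of all genes. The genes that rose were Bnip3 (0.65, adjusted p = 0.0367), Bcl2l12 (0.41, adjusted p = 0.00332), Aifm1 (0.25, adjusted p = 0.0274), Birc5 (0.56, adjusted p = 0.0253) and March5 (0.38, adjusted p = 0.00818), Bnip3 being named after its value was seen. In the p53 axis 9 of 12 genes rose, with a median log2 fold change of 0.79. The genes that fell were Bmf (-0.76, adjusted p = 5.8e-04), Hrk, a BH3-only gene of neurons (-1.22, adjusted p = 0.0264), and the ubiquitin ligase Birc3 (-0.42, adjusted p = 0.0482), the last named after its value was seen. Hrk was low in all genotypes, at 0.615 ± 0.124 FPKM in Dnmt3b+/+, 0.333 ± 0.235 in the embryos labelled Dnmt3b-/- and 0.826 ± 0.127 in Dnmt3bCI/CI. Leaving out each embryo in turn kept Bmf, Bcl2l12 and March5 called in 9 of 9 fits, Bnip3 in 5, Aifm1, Birc5 and Hrk in 4 and Birc3 in 2. Of the p53 axis, 8 genes were called in 9 of 9 and Mdm2 in 5. Hrk was lost without embryo 2 or 3 labelled Dnmt3b-/- (adjusted p = 0.0868 and 0.0820) or any of the Dnmt3bCI/CI embryos (0.0623, 0.0842 and 0.0648). With a pseudocount of 1 FPKM the log2 fold changes were -0.47 for Hrk and -0.17 for Birc3, and under quantile normalization Birc3 was at -0.16 and lost (adjusted p = 0.465).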

How the data were processed

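Total RNA from 9 whole embryos was sequenced with paired-end reads, 3 per genotype. The authors trimmed the reads and mapped them to mm10 with STAR. Reads mapped with high confidence were counted per gene by the RNA-seq module of SeqMonk, and linear FPKM values were deposited in 1 table. The annotation release and strand setting are not given in the sources used here. Of 34245 rows, 1 names no gene and was left out. A gene without reads holds a value worth 0.9 reads, and from these and exon lengths of GENCODE M21 the library totals and the members' reads were worked back, whole within 0.05 reads for 9 of 10 members.

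Genes that reached 0.1 FPKM in 3 or more embryos entered limma (3.58.1, R 4.3.3) as log2 values of FPKM + 0.1, in 1 model of all 9 embryos with the variance moderated by a trend on the level. The authors' own test on counts was not run, since the values are FPKM. A gene counted as risen or fallen at a Benjamini-Hochberg adjusted p under 0.05. The fit was also run on simulated data with noise drawn independently for each gene. The outcome is not given here, and no support is drawn from it. The members and the gene lists were chosen with earlier results of these data known. Besides the members, the called pathway genes were named, at most 15 per comparison by the lowest adjusted p; those named beyond this rule are said to be so, and the plot of the lists names every called gene. Alternatives were other pseudocounts, filters and scalings, a fit of the 2 groups compared, a replicate block and leaving out each embryo. A fit of embryos with low Xist was added after seeing the data. Sequences were read with python 3.11.15. Bisulfite sequencing and the promoter of Pmaip1 were not analysed here. The values of 1 gene are left out of the lists and not reported here.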

Additional observations from a re-analysis of the deposited data

How the results depend on the processing

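Bbc3, Pmaip1 and Bax were called in each of 18 alternatives against Dnmt3b+/+ and against Dnmt3bCI/CI. Bak1 (8 of 18), Apaf1 (8) and Mcl1 (13) were not always called against Dnmt3b+/+. The same number does not pair the embryos: 1 of 9 same-numbered pairs had a correlation over 0.1 and in 2 of 18 checks an embryo resembled its own number best. With the replicate block, 3029, 18 and 3595 genes were called in the 3 comparisons (5001, 28 and 5407 without it), and Bak1 (adjusted p = 0.0753) and Apaf1 (0.0842) were lost against Dnmt3b+/+, and Apaf1 (0.0791) against Dnmt3bCI/CI. In embryos with low Xist only, a choice made after seeing the data, 3097, 17 and 2764 genes were called, and 3 members in each comparison of the embryos labelled Dnmt3b-/-. With only the groups compared, 2740 genes and 3 members were called against Dnmt3b+/+. Leaving out 1 embryo gave 2438 to 6903 genes (fewest without embryo 2 labelled Dnmt3b-/-), 19 to 32 and 3074 to 7243 genes, and 3 to 6, 0 to 0 and 3 to 5 members, with 3 without embryo 2 labelled Dnmt3b-/- in the first and Dnmt3bCI/CI embryo 3 in the last comparison. The pro-apoptotic minus survival shift was 0.68 to 0.74 and 0.05 to 0.08, and 0.53 with a pseudocount of 1 FPKM. The causes were not tested.

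Directions turned only for members that were not called, in 10 of 30 fold changes. On leaving out 1 embryo, the log2 fold changes in Dnmt3bCI/CI against Dnmt3b+/+ ranged from -0.15 to 0.097 for Bbc3, -0.0076 to 0.11 for Bid, -0.018 to 0.12 for Bcl2l11, -0.081 to 0.0094 for Bax, -0.053 to 0.049 for Apaf1, -0.0030 to 0.15 for Bcl2, -0.031 to 0.037 for Bcl2l1 and -0.040 to 0.015 for Mcl1. Bcl2l11 ranged from -0.014 to 0.12 under the knockout label against Dnmt3b+/+ and from -0.040 to 0.035 against Dnmt3bCI/CI. Bcl2l1 in Dnmt3bCI/CI was -0.012 under median-of-ratios scaling and -0.011 under quantile normalization. With low Xist only, Apaf1 was 0.092, Bcl2l1 -0.020 and Mcl1 0.021 in Dnmt3bCI/CI against Dnmt3b+/+, and Bcl2l11 -0.025 under the knockout label against Dnmt3bCI/CI.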
